A study of Bos taurus with 18 samples.

Results

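Fertilisation and the first cleavages in cattle were followed in the RNA of 4-cell embryos set against metaphase II (MII) oocytes, the mature eggs. The comparison used 6 of the 18 libraries of the series, 3 of each stage, chosen by their stage labels and by no measured value. The 4-cell embryos were made by fertilisation in vitro and carry the breed label German Simmental x Brahman, since oocytes were fertilised with thawed semen of a commercial Zebu bull, and embryos were picked by their appearance. The MII oocytes were German Simmental, taken from abattoir ovaries, matured in vitro in medium with FSH and LH, and freed of their cumulus cells. Every library was made from a pool of 10 embryos or oocytes, and the labels do not say whether the pools came from separate collections, so p-values measure only the spread between these pools. Breed changes with stage, so a crossbred embryo is set against a purebred oocyte, and breed and stage cannot be told apart in any difference below. The cDNA was primed with random and poly(A) primers together and amplified before sequencing, and no strand is given, so an antisense gene and its partner share reads.

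A fully grown oocyte stores messenger RNA and stops transcribing, and it completes maturation, fertilisation and the first cleavages on those stores. Control in this period lies in poly(A) tail length, translation and RNA decay more than in transcription. In cattle the embryo's own genome becomes strongly active around the 8-cell stage, after a weaker onset in earlier cleavages, so 4-cell embryos lie between the end of maternal control and the main activation.

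The deposited values are variance-stabilised and close to log2. They were turned back into whole reads, and a level below is a scaled count, which is the number of reads of a gene times a factor of the library, comparable between libraries but not between genes of different length. Levels are relative to each library, so less RNA in the whole embryo and a lower share of 1 gene cannot be told apart. The 3 libraries of 4-cell embryos held 11874857, 11971840 and 5386236 reads on genes, and the 3 of MII oocytes 8115538, 10604488 and 8640740. Reads fell on 13114 to 14232 genes in 4-cell embryos and on 13581 to 14243 in MII oocytes. Rank correlations across genes were 0.935 to 0.951 between 4-cell libraries, 0.940 to 0.954 between MII libraries, and 0.920 to 0.946 between libraries of different stages. The median standard deviation between pools was 0.373 in 4-cell embryos and 0.339 in MII oocytes, against 0.611 in 8-cell and 0.652 in 16-cell embryos, over 8061 well covered genes. Oocyte markers were abundant in both stages, as BMP15 had 17834, 22120 and 22805 scaled counts in 4-cell embryos and 15965, 14182 and 17507 in MII oocytes.

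Few genes passed the threshold in the fit reported, and those that did were mostly lower in the embryo. Of 17138 genes tested with limma, a linear model with pooled spread, over all 18 libraries, 11 rose (0.0642%) and 125 fell (0.729%) in 4-cell embryos at an adjusted p under 0.05 (Benjamini-Hochberg), together 136 (0.794%). Voom weights on the recovered reads gave 19 rises (0.111%) and 131 falls (0.764%), and array weights 272 (1.59%) and 731 (4.27%). The pooled spread takes in the 8-cell and 16-cell libraries, which varied more between pools. Without 8-cell replicate 2 and the 16-cell libraries, an alternative chosen after seeing the data, 45 genes rose and 270 fell. All 3 embryo libraries lay above all 3 oocyte libraries for 1268 genes (7.4%) and below them for 1777 (10.4%), together 3045 (17.8%). The median difference over all genes tested was 0, with quartiles of -0.50 and 0.35. The genes that fell were well expressed, with a median level of 63.0 scaled counts in 4-cell embryos against 438 in MII oocytes, and a median fold of 5.97 of MII over 4-cell. By mean level over all 18 libraries, 63 of 6221 genes tested between 100 and 1000 scaled counts fell (1.01%). Between 1000 and 10000 it was 57 of 1816 (3.14%), and between 10 and 100 it was 4 of 5056 (0.079%). The median difference was -0.029 in both upper ranges and -0.027 in the lowest of these. How far lower power at low levels shapes these shares was not tested. The numbers of calls depend on single pools: there were 3 rises and 55 falls without MII replicate 3, 4 rises and 62 falls without MII replicate 2, and 5 rises and 75 falls without 4-cell replicate 1. There were 69 falls without 4-cell replicate 3, and 7 rises without MII replicate 1.

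**Figure D1:**
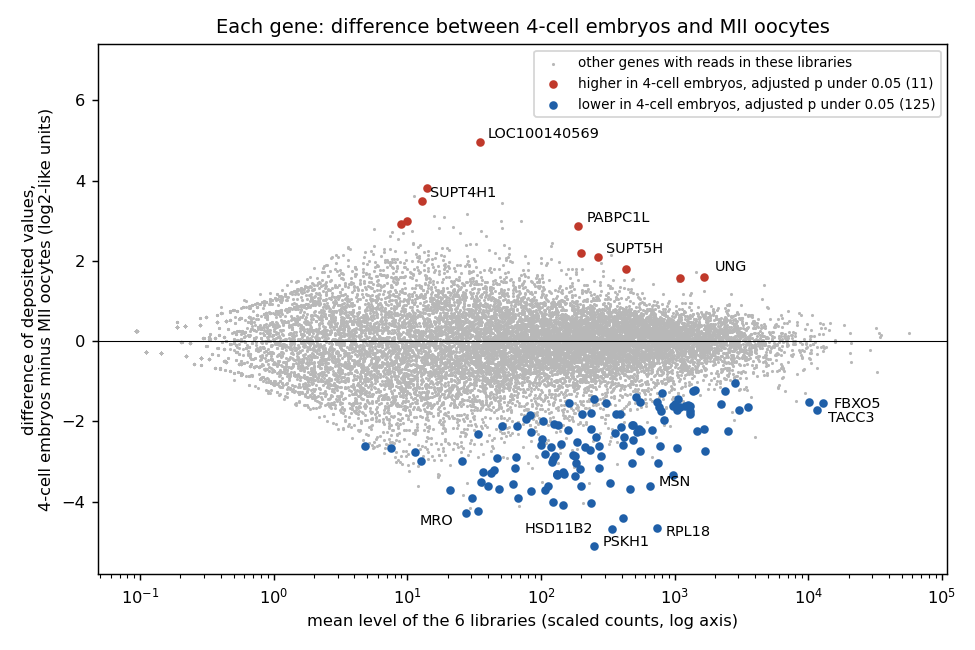
Difference of the variance-stabilised values, 4-cell embryos minus MII oocytes, against the mean level of the 6 libraries in scaled counts (log axis), 1 point per gene. Red points are the 11 rises and blue points the 125 falls at an adjusted p under 0.05, and most calls lie below the zero line.

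Genes of the cytosolic ribosome made up the largest set of falls among the lists of genes compared. Of 86 ribosomal protein genes tested, 25 fell (29.1%), 1 rose and 60 did not pass, and their median difference was -0.79 beside 0 over all genes. The summed level of the list was 21593 to 35762 scaled counts in 4-cell embryos and 44437 to 54487 in MII oocytes. RPL18, a protein of the large subunit, had 71.4, 99.3 and 18.3 scaled counts in 4-cell embryos and 1624, 1108 and 1530 in MII oocytes. Its embryo values all lay far below its oocyte values, and the difference was -4.65 ± 0.53 (SE, adjusted p = 5.9e-05). RPL34 had 60.2, 64.3 and 27.4 in 4-cell embryos and 428, 628 and 773 in MII oocytes (difference -3.52 ± 0.38, adjusted p = 4e-05). RPL26 had 21.4, 29.3 and 22.2 in 4-cell embryos and 245, 250.3 and 309 in MII oocytes (difference -3.26 ± 0.36, adjusted p = 4.2e-05). RPL36AL, a close copy of RPL36A, fell to a mean of 11.2 ± 4.8 in 4-cell embryos, against 234 ± 55.6 in MII oocytes (SD, n = 3 each), and with voom weights its adjusted p was 0.071. In the small subunit RPS27, RPS25 and RPS15, named after their values were seen, had differences of -3.03 ± 0.38, -2.096 ± 0.33 and -2.25 ± 0.45.

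The fall did not cover the whole ribosome. RPL4, RPS3 and RPL21 are examples named after their values were seen. RPL4 had a mean of 2200 in 4-cell embryos and 1966 in MII oocytes, RPS3 798 in 4-cell embryos and 794 in MII oocytes, and RPL21 1186 in 4-cell embryos and 1207 in MII oocytes, and none of them passed. RPSA, a small subunit protein also known as a laminin receptor, rose, with 1827, 2171 and 992.5 in 4-cell embryos and 754, 433 and 447 in MII oocytes (difference 1.58 ± 0.37, adjusted p = 0.044). Of the 86 ribosomal protein genes 45 were lower in every embryo library than in any oocyte library (52.3%), and 2 were higher (2.33%). Over all genes these shares were 10.4% and 7.4%. The number of falls in this list was 13 without 4-cell replicate 3 or without MII replicate 3, 15 without MII replicate 2 and 16 without MII replicate 1. It was 10 with voom weights and 5 in the 6 libraries alone. Ribosomal protein genes have many pseudogenes with near-identical sequence, so their counts may share reads with such copies. GNB2L1 (RACK1), a scaffold protein of the small ribosomal subunit that was not in the list and was chosen after its values were seen, had 41.6, 44.0 and 73.1 in 4-cell embryos against 529, 421 and 526 in MII oocytes (difference -3.15 ± 0.33, adjusted p = 3.5e-05).

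**Figure D2:**
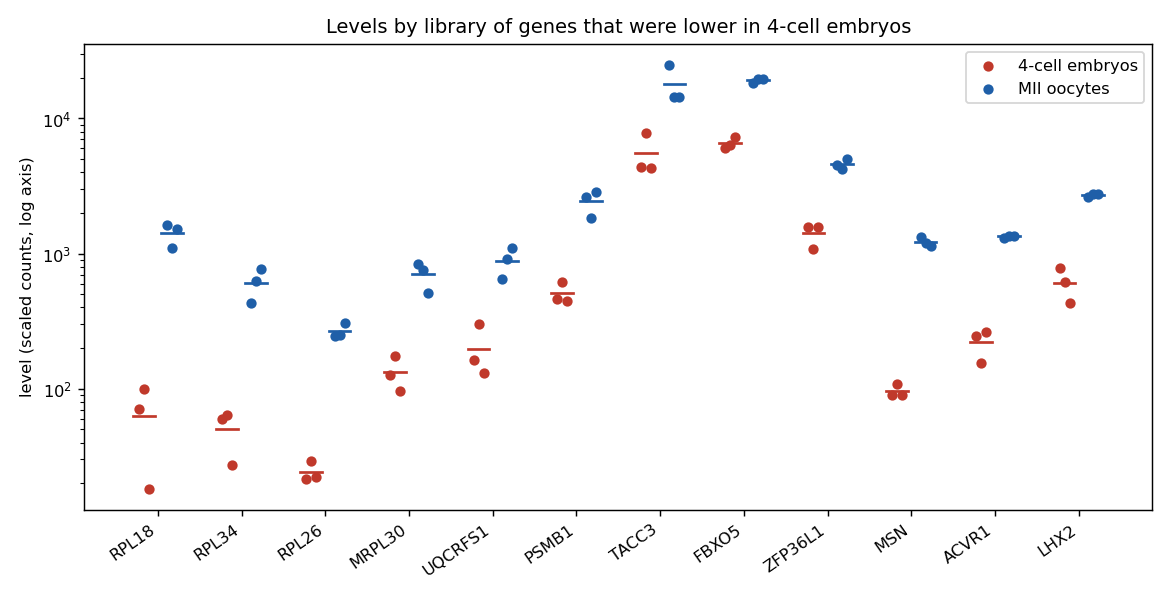
Scaled counts (log axis) of 12 genes that fell, with 1 point per library and a bar at the mean, 4-cell embryos in red and MII oocytes in blue. No 4-cell library reached the lowest MII library for any of the 12.

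Pseudogenes made up a larger share of the falls than of all genes, a count made after the calls were seen and not tested. RefSeq annotates 14 of the 119 falls it lists as pseudogenes (11.8%), against 290 of 15381 of the genes tested (1.89%), and 1 as a long non-coding RNA. LOC783726, a pseudogene, had 128, 142 and 149 in 4-cell embryos and 1024, 761 and 1095 in MII oocytes (difference -2.73 ± 0.32, adjusted p = 8.3e-05). LOC100300938, the long non-coding RNA, had 99.0, 65.5 and 36.6 in 4-cell embryos and 935, 911 and 729 in MII oocytes (difference -3.69 ± 0.56, adjusted p = 0.0011). No parent gene is named here for these pseudogenes. Both genes were named after their values were seen, as calls in all fits but the blocked fit of 6 libraries.

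Mitochondrial genes leaned the same way with few calls. Of 77 mitochondrial ribosomal protein genes 4 fell (5.19%, beside 0.729% of all genes) and none rose, and the median difference was -0.38. MRPL30 had 127, 175 and 96.6 in 4-cell embryos and 845, 755 and 511.5 in MII oocytes (difference -2.38 ± 0.38, adjusted p = 0.0018). MRPL22 averaged 77.6 ± 32.4 in 4-cell embryos and 469 ± 55.2 in MII oocytes (SD, n = 3 each). MRPS14 averaged 40.2 ± 14.9 in 4-cell embryos and 306 ± 86.8 in MII oocytes. Of 78 genes of oxidative phosphorylation 4 fell (5.13%) and none rose, with a median difference of -0.65. Without overlap 29 of them were lower (37.2%, beside 10.4% of all genes). UQCRFS1, the Rieske iron-sulfur protein of complex III, had 163, 299.6 and 132 in 4-cell embryos and 647, 910.1 and 1094 in MII oocytes (difference -2.19 ± 0.41, adjusted p = 0.0085). COX5A, a subunit of cytochrome c oxidase, averaged 506 ± 90.1 in 4-cell embryos and 1486 ± 86.3 in MII oocytes, and ATP5G1, of the ATP synthase ring, 31.2 ± 22.5 in 4-cell embryos and 222 ± 57.6 in MII oocytes. No call was left in the oxidative phosphorylation list without 4-cell replicate 3 or without MII replicate 3, while array weights gave 22 falls and 5 rises there.

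TIMM13, a small chaperone of the mitochondrial intermembrane space, went against this lean. It had 375, 375 and 235 in 4-cell embryos and 62.3, 90.9 and 53.2 in MII oocytes, a rise of 2.19 ± 0.41 (adjusted p = 0.0075). It was the only call among 31 genes of mitochondrial import, whose median difference was -0.05.

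Of 49 proteasome genes 5 fell (10.2%, beside 0.729% of all genes) and none rose (median difference -0.35). They were the catalytic subunits PSMB5 and PSMB6, and PSMB1, PSMA3 and PSMA7 of the same core particle, which degrades ubiquitin-tagged proteins, and PSMB5 and PSMA7 were named after their values were seen. PSMB1 had 459.6, 621 and 443 in 4-cell embryos and 2616, 1849 and 2846 in MII oocytes (difference -2.25 ± 0.30, adjusted p = 0.00031), and its call held without any 1 library. The list kept 1 fall without MII replicate 3 and 2 or 3 without any other single library of both stages. No gene passed among 56 translation factors (median difference 0.06), 81 ubiquitin enzymes (0.07) or 67 chaperones (-0.0047).

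**Figure D3:**
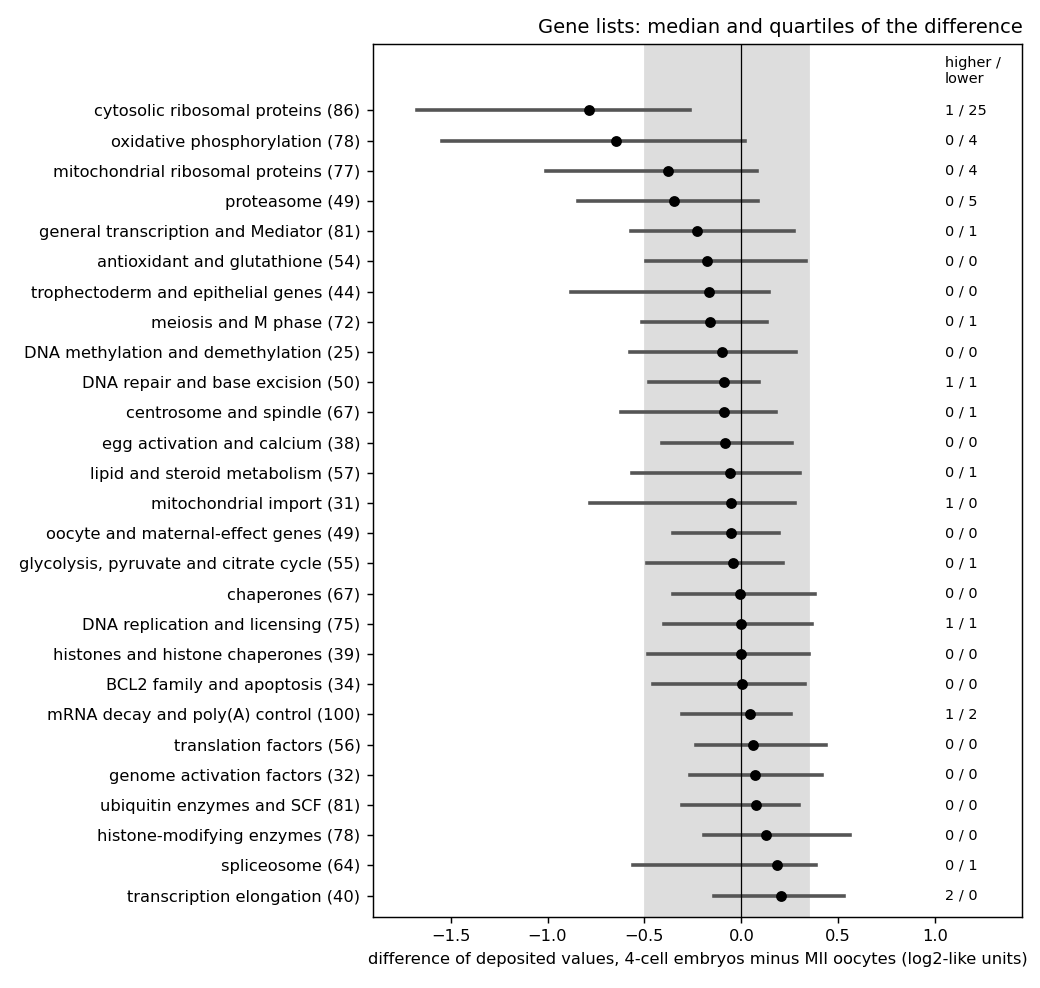
Median (point) and quartiles (bar) of the difference, 4-cell embryos minus MII oocytes, over the tested members of each gene list, with the number tested in brackets and the numbers of genes that rose and fell at the right. The grey band spans the quartiles of all 17138 genes tested, and the cytosolic ribosome at the top has the lowest median, -0.79.

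Among regulators of the cell cycle, 2 abundant genes fell. FBXO5 (EMI1), an inhibitor of the anaphase-promoting complex, had 6021, 6338 and 7343 scaled counts in 4-cell embryos and 18233, 19648 and 19735 in MII oocytes (difference -1.55 ± 0.35, adjusted p = 0.036). TACC3, which stabilises spindle microtubules, averaged 5516 ± 2036 in 4-cell embryos and 17869 ± 6016 in MII oocytes (difference -1.70 ± 0.40, adjusted p = 0.048). Both were lower in every embryo library than in any oocyte library, and each was the only call of its list, of 72 genes of meiosis and M phase and of 67 genes of centrosome and spindle. The adjusted p of FBXO5 was 0.087 to 0.16 over the 6 fits without 1 library so no such fit called it, and that of TACC3 0.042 to 0.25.

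ZFP36L1, which binds AU-rich elements and promotes decay of the RNA that holds them, had 1584, 1078 and 1568 in 4-cell embryos and 4546, 4204 and 5045 in MII oocytes (difference -1.72 ± 0.28, adjusted p = 0.0028). BTG1, which binds the CCR4-NOT deadenylase, averaged 106 ± 39.9 in 4-cell embryos and 363 ± 36.5 in MII oocytes. They were 2 of 3 calls among 100 genes of RNA decay and poly(A) control, and the third was a rise. RRM1, the large subunit of ribonucleotide reductase, averaged 641 ± 154 in 4-cell embryos and 1961 ± 301 in MII oocytes. RNF168, a ubiquitin ligase of DNA double-strand breaks, averaged 101 ± 17.3 in 4-cell embryos and 864 ± 207 in MII oocytes. MED13L of the Mediator and SNRPE of the Sm core of spliceosomes were the only falls in their lists, of 81 and 64 genes. No fit without 1 library called RRM1 (adjusted p of 0.057 to 0.18) or MED13L (0.082 to 0.25). BTG1 lost its call in 4 of these 6 fits and SNRPE in 5. With voom weights the adjusted p was 0.18 for BTG1 and 0.073 for SNRPE.

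The largest differences came from genes of varied roles. PSKH1, a serine/threonine kinase, had 12.4, 2.3 and 24.8 in 4-cell embryos and 623, 488 and 347 in MII oocytes (difference -5.09 ± 0.66, adjusted p = 0.00023). HSD11B2, the enzyme that inactivates cortisol, had 36.0, 37.8 and 5.2 in 4-cell embryos and 927.5, 589 and 453 in MII oocytes (difference -4.68 ± 0.76, adjusted p = 0.0023). Both kept their call without any 1 library, and HSD11B2 was the only call among 57 genes of lipid and steroid metabolism. THOC6 of the THO complex, which couples transcription to RNA export, had 9.0, 15.2 and 11.8 in 4-cell embryos and 419, 194 and 219 in MII oocytes. TRAPPC6B, a subunit of a vesicle tethering complex, averaged 23.4 ± 7.6 in 4-cell embryos and 450.3 ± 155 in MII oocytes.

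PDK4, a kinase that inhibits pyruvate dehydrogenase and the only call among 55 genes of glycolysis, pyruvate and the citrate cycle, and ZEB2, a zinc-finger repressor, had no read in any 4-cell library. The MII libraries differed widely in both, with 2.6, 119 and 80.7 scaled counts of PDK4 and 6.8, 104 and 14.6 of ZEB2, and the adjusted p over the 6 fits without 1 library was 0.00025 to 0.092 for PDK4 and 0.031 to 0.28 for ZEB2. MRO had 2 reads over the 4-cell libraries and 198 over the MII libraries.

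The lowest adjusted p of all genes belonged to MSN. MSN (moesin), which ties actin to the plasma membrane, had 89.4, 108 and 90.1 in 4-cell embryos and 1318, 1195 and 1133 in MII oocytes (difference -3.61 ± 0.36, adjusted p = 3e-05). ACVR1, a type I receptor for bone morphogenetic proteins, had 246, 156 and 262.5 in 4-cell embryos and 1305, 1361 and 1359.5 in MII oocytes (difference -2.61 ± 0.46, adjusted p = 0.0043). LHX2, a LIM-homeobox transcription factor, averaged 611 ± 179 in 4-cell embryos and 2714 ± 61.2 in MII oocytes, and PCBP2, an RNA-binding protein, 573.5 ± 86.9 in 4-cell embryos and 2041 ± 366 in MII oocytes. ACVR1, LHX2 and PCBP2 were picked after their values were seen. Apart from a fit of the 6 libraries with replicate number as a block, which called no gene, 16 falls and 2 rises passed in every alternative fit tried, and MSN, ACVR1, PCBP2, GNB2L1, RPL26, PSMB1, THOC6, TRAPPC6B, ZFP36L1 and RNF168 were among these falls.

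The 125 falls had high levels before and after the 4-cell stage. Their median deposited value was 9.42 in immature oocytes at the germinal vesicle (GV) stage and 8.78 in MII oocytes. It was 5.86 at 4 cells, 8.13 at 8 cells, 10.05 at 16 cells and 10.24 in blastocysts. The 4-cell stage had the lowest mean of all 6 stages for 91 of the 125, a value that the selection on low 4-cell levels favours, against 2286 of 17138 genes tested (13.3%). RPL34 had a mean of 824 in GV oocytes, 594 at 8 cells and 5431 at 16 cells. Other falls did not return: LHX2 had 2877 in GV oocytes, 405 at 8 cells and 98.6 in blastocysts, and HSD11B2 311, 7.2 and 0.77.

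An 8-cell against GV contrast was read for the same genes. Its difference uses libraries of neither stage compared here, and its spread is pooled over all 18. It again sets embryos after fertilisation against oocytes, so a breed change at fertilisation would enter it too. In it 1620 of all genes were higher at 8 cells (9.45%) and 1628 lower (9.5%). Of the 125 falls 62 were lower at 8 cells than in GV oocytes (49.6%), 10 were higher and 53 did not pass. The falls were mostly well expressed, and the shares of all genes were not matched to them for level. The count of 62 was 45 to 57 over the 6 fits without 1 of the 8-cell or GV libraries, among them 54 without 8-cell replicate 2, where 12393 genes were detected beside 14081 and 14618 in its 2 companions.

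**Figure D4:**
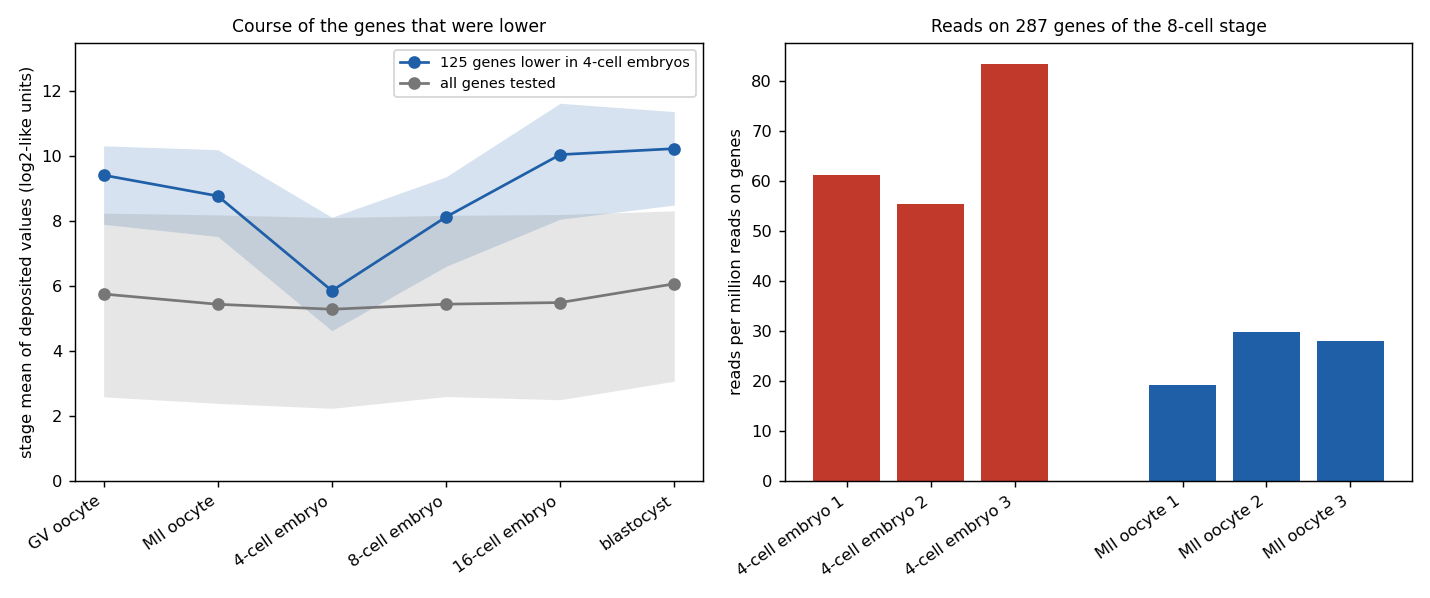
Left, median (line) and quartiles (band) of the stage mean of deposited values for the 125 falls and for all genes tested over the 6 stages. Right, CPM summed over 287 genes with no GV read that are called higher at 8 cells than in GV oocytes, by library, at 55.5 to 83.6 in 4-cell embryos and 19.2 to 29.7 in MII oocytes.

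The 11 rises differed in their earlier course, by groupings made after the values were seen. PABPC1L, the poly(A)-binding protein of oocytes and early embryos, had 447, 358 and 208 in 4-cell embryos and 46.1, 23.7 and 59.2 in MII oocytes (difference 2.87 ± 0.64, adjusted p = 0.036). All 3 embryo values lay above the oocyte values, and the GV mean was 637 and the 8-cell mean 48.1. TIMM13, POLE4 and RPSA also had GV means, of 404, 932 and 960.0, above their MII means of 68.8, 186 and 545. POLE4, a histone-fold subunit of DNA polymerase epsilon, had 714, 857 and 441 in 4-cell embryos and 242, 174 and 143 in MII oocytes (difference 1.80 ± 0.42, adjusted p = 0.043). It was 1 of 2 calls among 75 genes of DNA replication and licensing.

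UNG and SUPT5H had similar means in GV and MII oocytes and rose in 4-cell embryos. UNG, the uracil-DNA glycosylase of base excision repair, had 2682, 3042 and 1737 in 4-cell embryos and 739, 729.7 and 957 in MII oocytes (difference 1.59 ± 0.33, adjusted p = 0.02). Its mean at 4 cells was 2487 ± 674, the highest of the 6 stages, with 912 in GV oocytes and 817 at 8 cells. SUPT5H had 605, 354 and 355 in 4-cell embryos and 126, 92.2 and 76.4 in MII oocytes (difference 2.09 ± 0.42, adjusted p = 0.014).

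SUPT5H and SUPT4H1 encode both subunits of DSIF, the factor that pauses RNA polymerase II near the promoter and later keeps it moving. SUPT4H1 had 21.9, 34.4 and 19.6 in 4-cell embryos and 0, 0.66 and 0 in MII oocytes, that is 115 reads against 1 (difference 3.49 ± 0.55, adjusted p = 0.0018). It had a mean of 2070 ± 253 at 8 cells and kept its call without any 1 library. They were the only calls among 40 genes of transcription elongation, whose median difference was 0.20, and none of 81 genes of general transcription and the Mediator rose. None of the 6 fits without 1 library called PABPC1L (adjusted p of 0.066 to 0.22). UNG and POLE4 lost their call in 5 of these fits, RPSA in 4, SUPT5H in 3 and TIMM13 in 2.

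**Figure D5:**
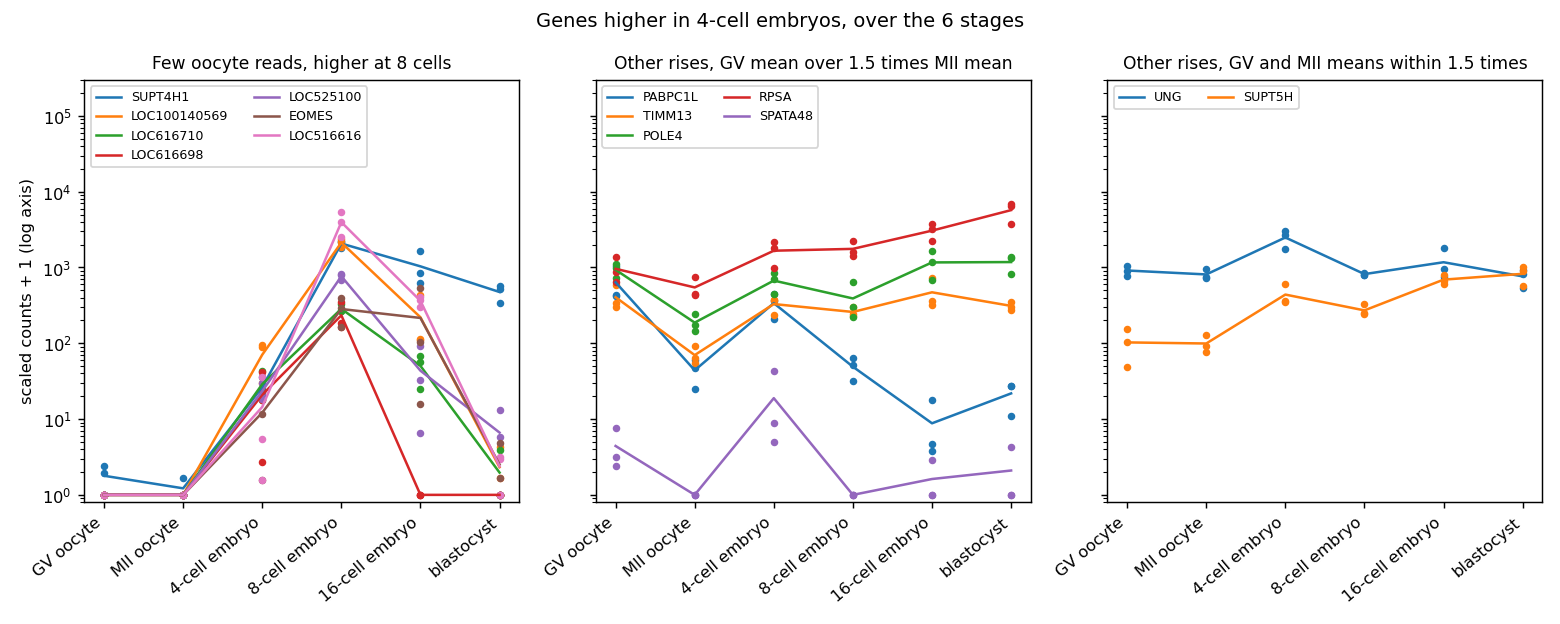
Scaled counts + 1 (log axis) over the 6 stages for the 11 rises and for LOC525100, EOMES and LOC516616, which did not pass, with 1 point per library and lines through the means. The left panel holds genes with at most a few reads in oocytes and means of 233 to 3961 at 8 cells, the middle panel other rises with a GV mean over 1.5 times the MII mean, and the right panel UNG and SUPT5H, whose GV and MII means lie within 1.5 times of each other.

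The other 4 rises had no read in any MII library. They were LOC100140569, LOC616710, LOC616698 and SPATA48. LOC100140569 had 28.7, 87.5 and 92.7 in 4-cell embryos, 277 reads in all (difference 4.95 ± 0.75, adjusted p = 0.0011), and 2132 ± 259 at 8 cells. LOC616710 had 24.2, 42.3 and 16.98 in 4-cell embryos (adjusted p = 0.0086), and LOC616698 41.1, 1.7 and 16.98 (adjusted p = 0.044). These LOC genes had no read in GV oocytes either. SPATA48 had 7.9, 4.0 and 41.8 in 4-cell embryos (adjusted p = 0.04), 3.4 in GV oocytes and no read at 8 cells. Of the 6 fits without 1 library, SPATA48 and LOC616698 lost their call in 5 each and LOC616710 in 3, while LOC100140569 kept it in all 6.

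Reads in all 3 libraries of 4-cell embryos and in none of MII oocytes were found for 46 genes, and the reverse for 69. Thinning each library to 5386236 reads gave 44 and 76 genes, and a minimum of 5 reads gave 9 and 10. The libraries of 8-cell embryos and GV oocytes, which did not choose these genes, give a second reading of both sets, again of embryos against oocytes. Of the 46 genes seen at 4 cells 15 were higher at 8 cells than in GV oocytes (32.6%) and none was lower, while of the 69 genes lost 3 were higher and 3 lower (4.35% each). The share over all genes was 9.45% higher and 9.5% lower. Both sets passed the filter by their own reads, while all genes include some read only at other stages. These shares were therefore not matched for level or detection. The count of 15 was 13 to 16 over the fits without 1 library.

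Of these 46 genes 16 had no read in GV oocytes, and 12 of the 16 were higher at 8 cells. Genes with no GV read can only be higher in that contrast, so the direction is set by the choice. Of all 1858 tested genes with no GV read 287 were higher (15.4%), a share not matched for level or detection either. Of the 69 genes of the reverse set 11 had no GV read, and 1 of these was higher at 8 cells. EOMES, a T-box transcription factor of early lineages, had 10.7, 0.56 and 22.2 scaled counts in 4-cell embryos, none in either oocyte stage, and 282 ± 114 at 8 cells. LOC516616 had 4.5, 0.56 and 35.3 in 4-cell embryos and 3961 ± 1395 at 8 cells. LOC525100 had 17.4, 20.9 and 28.7 in 4-cell embryos and 764 ± 67.6 at 8 cells, and its adjusted p between 4-cell embryos and MII oocytes was 0.052. SPIC, an ETS-family factor, had 2.3, 4.5 and 1.3 in 4-cell embryos, 2.1 at 8 cells and 1579 in blastocysts. EOMES, SPIC and the LOC genes were picked after their values were seen.

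Genes of the 8-cell stage were also read in the 4-cell and MII libraries. The 8-cell against GV contrast gave 287 genes that were higher at 8 cells and had no GV read. The choice used 4-cell and MII libraries only in the pooled spread and the filter. It took genes read in embryos and unread in GV oocytes, so it favours low values in MII oocytes, which are oocytes too. Their share of a library's reads, as counts scaled to a fixed total (CPM), was 61.3, 55.5 and 83.6 CPM in 4-cell embryos and 19.2, 29.7 and 28.0 in MII oocytes, against 5376 to 7807 in 8-cell embryos. All 3 embryo values lay above the 3 oocyte values, an order that the choice of genes favours. Without the 3 of these genes that were called as rises, the values were 47.2, 36.0 and 65.5 in 4-cell embryos and the same as before in MII oocytes.

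Of the 287 genes 86, 40 and 82 had a read in the 4-cell libraries and 33, 42 and 37 in the MII libraries, so 4-cell replicate 2 lay within the oocyte range. At least 1 read in 4-cell embryos and none in MII oocytes was found for 92 genes, and the reverse for 38. Mean values were higher in 4-cell embryos for 118 genes (41.1%) and lower for 58 (20.2%), beside 43.7% and 49.4% of all genes tested. The means did not differ for 111 of the 287, so these shares are not like those of all genes. Without overlap 12 of the 287 were higher (4.18%) and 1 lower, beside 7.4% and 10.4% of all genes. Chosen without 8-cell replicate 2, the set held 406 genes with 49.95 to 98.96 CPM in 4-cell embryos and 27.1 to 37.2 in MII oocytes. MBD3L2, named after its values were seen, had 7.3, 0 and 7.8 scaled counts in 4-cell embryos, none in MII oocytes and 2577 ± 638 at 8 cells.

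None of 32 known factors of genome activation passed (median difference 0.07), and several had few reads. KLF17, a Krüppel-like factor, had 11.8, 1.1 and 5.2 in 4-cell embryos and 0.85, 0 and 0 in MII oocytes (adjusted p = 0.24). ZSCAN4 had 30.9, 0 and 9.1 in 4-cell embryos and NANOG 6.2, 0 and 9.1, and neither had a read in MII oocytes. Replicate 2 of the 4-cell stage was lowest for each of these, as it was for EOMES. Among the rises, SUPT4H1 and LOC616710 were instead highest in that replicate, and LOC100140569 was lowest in replicate 1. POU5F1, the pluripotency factor OCT4, had 331, 193 and 183 in 4-cell embryos and 84.6, 115 and 114 in MII oocytes, higher in every embryo library but not past the threshold (adjusted p = 0.32). With array weights KLF17 (adjusted p = 0.003), ZSCAN4 (0.014) and POU5F1 (0.011) passed.

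No call fell on the list of oocyte and maternal-effect genes, which does not hold PABPC1L. None of its 49 tested genes passed (median difference -0.05), while voom weights called 2 falls and array weights 3 falls and 1 rise. The summed level of the list was 250930 to 265610 scaled counts in 4-cell embryos and 277780 to 324780 in MII oocytes. GDF9, an oocyte growth factor, had 5198, 7700 and 4300 in 4-cell embryos and 6105, 5448 and 6229.5 in MII oocytes. DPPA3, which protects maternal imprints from loss of methylation in mice, averaged 20602 ± 2410 in 4-cell embryos and 21309 ± 1409 in MII oocytes, and BTG4, an adaptor of the deadenylase, 35792 ± 4673 in 4-cell embryos and 33513 ± 4642 in MII oocytes. WEE2, an oocyte kinase that inhibits CDK1, averaged 6795 ± 170 in 4-cell embryos and 7083 ± 538 in MII oocytes, and CCNB1, a mitotic cyclin, 7613 ± 1505 in 4-cell embryos and 7832 ± 43.6 in MII oocytes. A p over the threshold does not show that these levels are equal.

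None of the zona pellucida genes ZP2, ZP3 and ZP4, which encode the coat of the egg, passed. ZP3 had 1250.0, 1067 and 1033 in 4-cell embryos and 5761, 3974 and 3627 in MII oocytes, with no overlap, a difference of -1.97 ± 0.56 and an adjusted p of 0.14 (0.013 with voom weights, 0.0015 with array weights). ZP2 had 19610, 29489 and 23896 in 4-cell embryos and 40785, 36488 and 45464 in MII oocytes (adjusted p = 0.56). ZP4 had 3479, 3938 and 2483 in 4-cell embryos and 3321, 2398.5 and 3206 in MII oocytes, which overlap. MOS, the kinase that sustains metaphase arrest, had 1623, 1484 and 384 in 4-cell embryos and 2900, 1379 and 1011 in MII oocytes, which overlap.

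The chromatin lists gave no call. DNMT1, the maintenance DNA methyltransferase, averaged 5027 ± 1235 in 4-cell embryos and 5554 ± 562 in MII oocytes, and TET3, which oxidises methylcytosine, 266 ± 20.1 in 4-cell embryos and 222 ± 56.2 in MII oocytes. POLR2A, the catalytic subunit of RNA polymerase II, had 421, 204 and 713 in 4-cell embryos and 555, 671 and 481 in MII oocytes. No gene passed among 39 histone and histone chaperone genes, 25 genes of DNA methylation or 78 histone-modifying enzymes, whose median differences were -0.00035, -0.10 and 0.13.

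No marker of another cell type passed the test. Of 56 spermatozoon genes measured 25 had no read in any of the 6 libraries, among them PRM1, PRM2, TNP1 and TNP2. None of 33 tested passed, with 1 higher (3.03%) and 3 lower (9.09%) without overlap, beside 7.4% and 10.4% of all genes. LDHC and ODF2, named after their values were seen, were read in all 6 libraries. LDHC had 318, 538 and 337 in 4-cell embryos and 655, 551 and 733 in MII oocytes. ODF2 had 210, 203 and 120 in 4-cell embryos and 115, 105 and 65.2 in MII oocytes. Of 42 genes of cumulus and granulosa cells tested none passed, with a median difference of -0.30. Without overlap 2 were higher (4.76%) and 5 lower (11.9%). Of all 46 such genes measured, 7 had no read in any of the 6 libraries, among them FSHR, FOXL2, AREG and EREG. Others were abundant in both stages, and those named next were chosen after their values were seen. FOXO1 had 4125, 3682 and 3729.7 in 4-cell embryos and 2667, 3121 and 3527 in MII oocytes, which do not overlap. PTGS2 had 459.6, 515 and 504 in 4-cell embryos and 840.4, 842 and 1051 in MII oocytes, lower in every embryo library (adjusted p = 0.63). STAR had 1153, 1318 and 1335 in 4-cell embryos and 1441, 1415 and 1435 in MII oocytes, and HAS2 1083, 1714 and 1171 in 4-cell embryos and 1180.4, 998 and 1069 in MII oocytes. The summed level of the list was 8389 to 9068 scaled counts in 4-cell embryos and 7803 to 10613 in MII oocytes. Y-linked genes summed to 0 to 1.7 scaled counts in 4-cell embryos and to 0 in MII oocytes. Any part of other cells in the calls above was not tested.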

How the data were processed

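The authors deposited variance-stabilised log2-like values of 21668 genes for 18 libraries in 1 table. The submitters' processing notes name CASAVA 1.6, TopHat2 2.0.3, HTSeq, DESeq and the build UMD3.1. How multiply mapped reads were counted was not given in these sources. Inverting the transformation gave whole reads for all 390024 deposited log2 values (tolerance 1e-06), with 0.563 to 2.82 scaled counts per read. Names came from the table or from RefSeq (ARS-UCD2.0, 18841 matched), used for names and gene types only.

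limma 3.58.1 in R 4.3.3 fitted stage over all 18 libraries with a variance trend, two-sided, leaving out genes with reads in fewer than 3 libraries. Counts and figures used Python 3.11.15. The procedure was tested on simulated data. A weighted linear model on log values of the recovered reads was run as voom, and no count model was fitted. Named genes were the 15 largest rises and 20 largest falls with a symbol and no overlap (8 rises qualified), up to 3 calls per list, 34 known genes, and genes called in every alternative with all 6 libraries, which named none (others are marked in the text as named after their values were seen). The members and lists were chosen with earlier results of these data known. The same replicate number was not taken as a pair. Correlations of deviations were 0.076, -0.002 and 0.124 between same-numbered libraries and -0.117 to 0.046 between other-numbered ones. Fits with the replicate number as a block are given below.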

Additional observations from a re-analysis of the deposited data

How the results depend on the processing

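The balance of fewer rises than falls held in every setting that made calls, but their number did not. Rises and falls were 11 and 125 as reported, 20 and 83 in a fit of the 6 libraries alone, 57 and 224 in a fit of these stages plus GV oocytes, 272 and 731 with array weights, and 45 and 270 without 8-cell replicate 2 and the 16-cell libraries, an alternative chosen after seeing the data. With voom weights 19 genes rose and 131 fell. With the replicate number as a block, 18 rose and 144 fell over 18 libraries. The block in the 6 libraries alone called 0 rises and 0 falls with limma, with 959 genes higher and 1440 lower at an unadjusted p under 0.05, and voom without a block called the numbers above. Leaving out 1 library of either stage gave 3 to 8 rises and 55 to 90 falls. Of the 11 rises and 125 falls, 11 and 125 passed with array weights, 10 and 82 with voom and 3 and 35 in the 6 libraries alone. Of 56 named genes with a call 27 lost it in at least 1 fit without a library and none changed sign in any setting. The 8-cell against GV counts of 15, 62 and 287 were 13 to 16, 45 to 57 and 195 to 406 without 1 library each. The unadjusted p was under 0.05 for 1320 genes in the fit reported. One read is worth 0.563 to 1.31 scaled counts in these 6 libraries, so genes with fewer than 3 reads in a stage have no usable fold. Other filters, scales and normalizations gave 11 to 15 rises and 110 to 138 falls. Without the variance trend there were 12 rises and 85 falls, and 7 of the 11 rises and 75 of the 125 falls were kept.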
